A study of Mus musculus with 4 samples.

Results

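Mast cells were examined in single-cell transcriptomes of fetal mouse leg muscle, where they made up 256 of 36969 cells kept (0.692%). The members were chosen by measured transcripts: a cell was counted as a mast cell when at least 3 of the 6 transcripts *Cpa3*, *Mcpt4*, *Cma1*, *Tpsb2*, *Kit* and *Fcer1a* were detected, when their unique molecular identifiers (UMIs) summed to at least 10, and when *Pdgfra*, *Myog* and *Cdh5* were at 0. The excluded transcripts mark fibro-adipogenic progenitors (FAPs), differentiating myogenic cells and endothelial cells. The cells came from E18.5 fetuses of *SYISL* heterozygous matings. Both genotypes were littermates, and leg muscle was digested with trypsin and DNase I before droplet capture. There were 2 wild-type libraries (WT1 and WT2) and 2 *SYISL* knockout libraries (KO1 and KO2). *SYISL* is a muscle long non-coding RNA. No feature of the count tables carried its name, so the knockout was not checked here, and the labels do not state the number of fetuses or their sex for any library. The knockout is not described as limited to any cell type.

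Mast cells are tissue-resident leukocytes that store proteases, histamine and heparin in granules bound to the proteoglycan serglycin. They depend on stem cell factor, the ligand of the receptor KIT, and release their granules after cross-linking of IgE on the high-affinity receptor FcεRI or after stimulation of MRGPR receptors by cationic peptides. Connective tissue mast cells settle in skin and muscle during fetal life, and mucosal mast cells line the gut and airways and use other proteases.

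The 4 libraries held 9528 to 11670 deposited cells and 109653824 to 126257094 UMIs. The median mast cell held 11236 UMIs in WT1, 12039 in WT2, 9684 in KO1 and 10658 in KO2, against 10371, 11427, 9118 and 9727 for the median kept cell, so KO cells were somewhat shallower throughout. A total of 171 cell barcodes occurred in more than 1 library, none of them in a mast cell. Mast cells of KO2 carried *Xist* at 1280 CPM and *Ddx3y* at 0, and mast cells of the 3 other libraries carried *Xist* at 0 and *Ddx3y* at 84.4 to 103 CPM. CPM are the UMIs of a gene over all UMIs of the cells considered, scaled to 1000000. The sex of the fetuses behind KO2 and its other traits as a library cannot be told apart, and values without KO2 are given where it decides a result.

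Few cells lay near the limit of the gate. The summed UMIs of the 6 gate transcripts had a median of 853, 882, 797 and 842 per mast cell in WT1, WT2, KO1 and KO2, and a single member lay between 10 and 19. Just outside the limit, 3 cells had a sum of 7 to 9. A further 54 cells met the limits on mast transcripts and were left out for a UMI of *Pdgfra*, *Myog* or *Cdh5*.

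Markers outside the gate were present as the label requires. *Hdc*, which encodes the enzyme that makes histamine, was detected in 97.4% to 100% of mast cells of each library after every cell was thinned to 2000 UMIs, and in 0.345% to 0.788% of FAP cells thinned in the same way. *Gata2*, a transcription factor of the mast lineage, was detected in 54.5%, 60.8%, 59.7% and 56.2% of mast cells in WT1, WT2, KO1 and KO2, and in at most 0.207% of FAP cells. FAP cells should lack these transcripts, so their shares give a background, at a median of 9941 to 13050.5 UMIs per FAP cell before thinning. The FAP gate left out cells with a UMI of the leukocyte gene *Ptprc*, so doublets with mast cells may be under-represented in it. Even *Cma1*, the mast cell chymase, was detected in only 0.633% to 1.2% of FAP cells. Of 10 macrophage genes compared, 9 were at least 2-fold lower in mast cells than in other kept cells in each library, and 1 was higher. Over all genes compared, 24.7% were lower and 8.76% higher. *C1qa* stood at 0, 6.56, 0 and 0 CPM, against a mean of 2629 CPM in macrophages. *Cd68* was higher in mast cells, at 50.0, 44.3, 51.0 and 25.2 CPM in WT1, WT2, KO1 and KO2, against 12.4 CPM in other cells and 318 CPM in macrophages.

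For 4 of the mast cell genes that the results turn on, the proximal promoter is shown from RefSeq (GRCm38.p6, minus strand for each), as 250 bases before and 50 bases after the start of the gene, 5′ to 3′ on the gene's own strand. The genes encode the granule proteases carboxypeptidase A3, mast cell protease 4 and chymase, and the β chain of the IgE receptor. The windows lie at chr3:20242132-20242431 (*Cpa3*), chr14:56062261-56062560 (*Mcpt4*), chr19:11623670-11623969 (*Ms4a2*) and chr14:55944626-55944925 (*Cma1*). Capitals mark the letters AGATAA and TGATAA, which are forms of the site that GATA factors bind, and on the opposite strand TTATCT and TTATCA.
Cpa3: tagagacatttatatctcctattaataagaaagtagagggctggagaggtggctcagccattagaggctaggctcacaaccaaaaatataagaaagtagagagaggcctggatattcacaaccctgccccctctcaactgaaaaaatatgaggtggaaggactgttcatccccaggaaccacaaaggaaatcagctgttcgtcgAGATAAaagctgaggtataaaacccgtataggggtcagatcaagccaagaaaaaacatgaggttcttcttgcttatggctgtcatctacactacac
Mcpt4: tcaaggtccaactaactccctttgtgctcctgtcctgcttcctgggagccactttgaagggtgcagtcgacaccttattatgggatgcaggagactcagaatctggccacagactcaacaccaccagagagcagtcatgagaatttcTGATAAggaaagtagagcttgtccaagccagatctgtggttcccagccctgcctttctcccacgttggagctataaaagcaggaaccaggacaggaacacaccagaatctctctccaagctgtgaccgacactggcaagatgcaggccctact
Ms4a2: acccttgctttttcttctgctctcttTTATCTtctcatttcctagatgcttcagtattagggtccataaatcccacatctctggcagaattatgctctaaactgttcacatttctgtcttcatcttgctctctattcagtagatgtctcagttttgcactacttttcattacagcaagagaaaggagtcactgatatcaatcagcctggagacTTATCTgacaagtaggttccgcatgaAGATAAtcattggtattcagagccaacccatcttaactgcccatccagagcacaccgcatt
Cma1: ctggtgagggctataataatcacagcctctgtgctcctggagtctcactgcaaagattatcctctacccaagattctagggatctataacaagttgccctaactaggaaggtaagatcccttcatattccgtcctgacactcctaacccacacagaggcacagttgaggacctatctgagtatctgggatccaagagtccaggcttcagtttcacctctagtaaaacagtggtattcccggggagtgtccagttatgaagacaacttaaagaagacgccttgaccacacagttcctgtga
The *Cpa3* window held 1 match, 46 bases before the start. The *Mcpt4* window held 1 match 103 bases before the start, the *Ms4a2* window held 3 matches (224, 37 and 11 bases before it) and the *Cma1* window held none. Of the 6 gate genes and the 20 leading genes described next, 23 had a window in the RefSeq table and 11 of these held at least 1 match, while 21% of all 27025 genes with a window held one. A match is a stretch of letters and was not tested as a binding site.

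The genes that set mast cells apart from the other kept cells were read as a description, since transcripts chose the cells. Of 11009 genes compared, 964 (8.76%) were at least 2-fold higher in mast cells in each of the 4 libraries and 2715 (24.7%) were at least 2-fold lower. The counts within gene lists below are to be read against these shares. Outside the gate, the 20 genes with the highest ratio in their lowest library, among those at a mean of 50 CPM or more, began with *Mrgprb2*, the receptor through which cationic peptides trigger mouse connective tissue mast cells. It stood at 372, 381, 473 and 392 CPM in WT1, WT2, KO1 and KO2, at least 719 times the level in other cells of the same library. Its neighbour on chromosome 7, *Mrgprb1*, stood at 693, 1109, 1040 and 736 CPM, and *Mrgprx2* at 253, 239, 344 and 198 CPM. Reads of these closely related genes may be hard to tell apart.

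The leading genes further held *Csf2* (the cytokine GM-CSF), *Ms4a2*, *Hdc*, *Rgs13* (a regulator of G protein signalling), *Cyp11a1* (the first enzyme of steroid synthesis), *Adora3* (the adenosine A3 receptor), *Cd200r3*, *Cst7* (the protease inhibitor cystatin F), the tryptases *Tpsab1* and *Tpsg1*, the chymase-family gene *Cma2* and *Il1rl1*, which encodes the IL-33 receptor ST2. *Il1rl1* stood at 1404, 1361, 1429 and 1152 CPM in WT1, WT2, KO1 and KO2, against 2.59 CPM on average in other cells. *Cyp11a1* stood at 505, 633, 597 and 530 CPM, against 0.747 CPM. One of the 20, *Ctsj*, a cathepsin, was uneven: it stood at 272 CPM in WT1 and at 54.8 to 69.3 CPM in the 3 other libraries. *Calca*, the gene of calcitonin and of the neuropeptide CGRP, was singled out after its values were seen and was also a mast cell transcript here, at 1545, 1209, 1122 and 870 CPM against 2.73 CPM in other cells. After thinning, a *Calca* UMI was found in 64.4% to 74.5% of mast cells of each library and in 0.0415% to 0.263% of FAP cells.

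**Figure D1:**
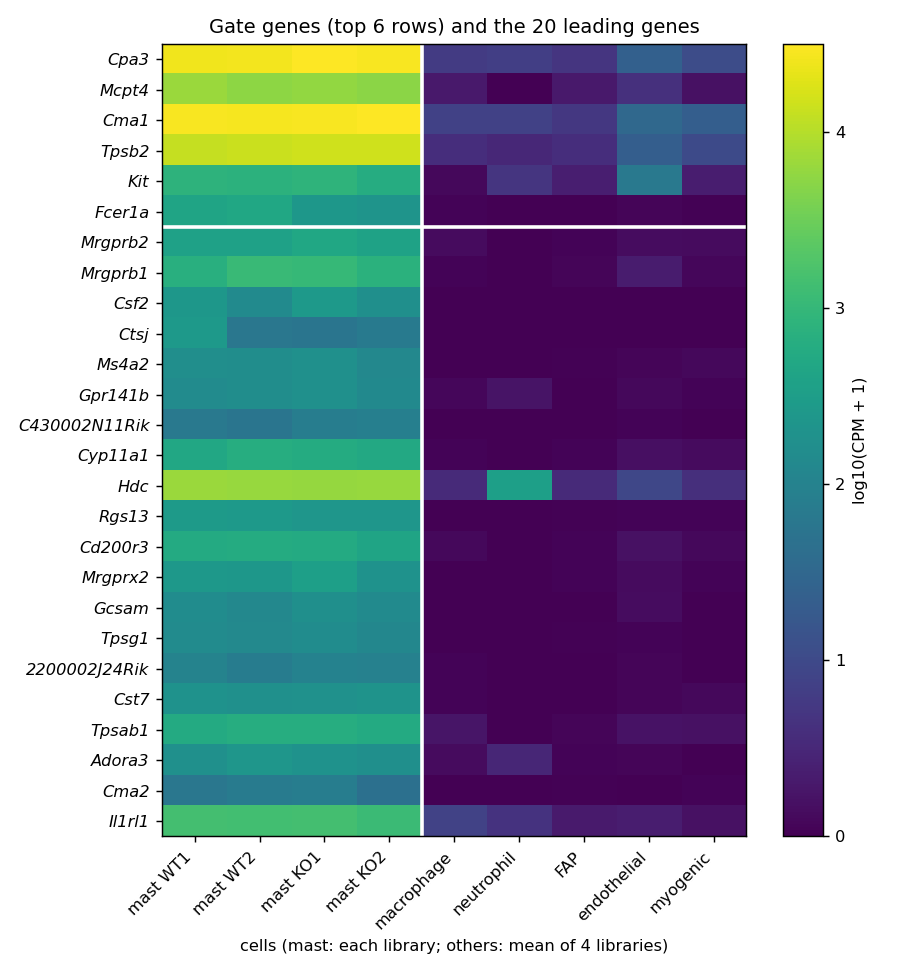
Levels of the 6 gate genes and the 20 leading genes as log10(CPM + 1), with a column for the mast cells of each library and a column with the mean over 4 libraries for macrophages, neutrophils, FAPs, endothelial and myogenic cells. *Mrgprb2* stands at 372 to 473 CPM in mast cells and at 0.466 CPM on average in all other cells, while *Hdc* is also visible in neutrophils (352 CPM) and *Kit* in endothelial cells (49.1 to 82.2 CPM by library).

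Granule proteases beyond the gate were present too. Of 14 granule protease genes listed, 12 reached the level needed for a comparison and all 12 were at least 2-fold higher in mast cells, of which 4 were gate genes that had to be. Among the other 8, *Tpsab1* stood at 572, 648, 638 and 559 CPM and *Tpsg1* at 147, 128, 150 and 120 CPM, against means of 0.812 and 0.182 CPM in other cells. The gate proteases are given for their variation among libraries. *Cpa3* stood at 24843, 26213, 31257 and 28640 CPM in WT1, WT2, KO1 and KO2, *Cma1* at 28107, 27891, 28708 and 31666 CPM, and *Tpsb2*, a tryptase, at 12837, 13852, 14914 and 14848 CPM. *Mcpt4*, a chymase of connective tissue mast cells, stood at 6590, 5398, 5901 and 5327 CPM. Genes of mucosal mast cells stood lower than the gate proteases, with 5 listed genes summing to 189, 67.3, 54.8 and 64.3 CPM. Of these, 2 reached the level needed for a comparison. Both were at least 2-fold higher in mast cells than in other cells, against 8.76% of all genes compared. *Mcpt1* was at 1.56 CPM in WT1 and at 0 in the 3 other libraries. *Mcpt2* was at 144 CPM in WT1 and at 14.8, 10.2 and 29.0 CPM in WT2, KO1 and KO2, and 1 cell held 71.7% of its WT1 UMIs. Proteases that are also known from basophils were present, with *Prss34* at 295, 179, 375 and 426 CPM and *Mcpt8* at 17.2, 42.6, 21.7 and 16.4 CPM.

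Genes of granule content followed. Of 28 genes of granule storage and amine handling, 18 were at least 2-fold higher in mast cells and 2 were at least 2-fold lower. *Srgn*, serglycin, stood at 10896, 11223, 10116 and 9206 CPM, and *Hdc* at 6626, 6502, 6057 and 6440 CPM against 8.68 CPM in other cells. *Slc18a2*, the transporter that loads amines into vesicles, stood at 274, 323, 374 and 451 CPM, *Slc6a4*, the serotonin transporter, at 716, 810, 760 and 762 CPM, and *Tph1*, which starts serotonin synthesis, at 219, 179, 184 and 214 CPM. Transcripts for making histamine and serotonin and for loading amines into vesicles were thus present in mast cells of all 4 libraries. *Hs3st1*, a heparan sulfate sulfotransferase, stood at 430, 595, 672 and 657 CPM.

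Genes of the IgE receptor and its signalling formed a further group. Of 23 such genes compared, 20 were at least 2-fold higher in mast cells, the gate gene *Fcer1a* among them, and none was at least 2-fold lower. *Ms4a2* stood at 169, 161, 184 and 126 CPM, and *Fcer1g*, the γ chain shared with other Fc receptors, at 3834, 4102, 3639 and 3562 CPM against 2772 CPM in macrophages. *Lat2*, an adaptor below the receptor, stood at 497, 546, 513 and 600 CPM. Of 32 surface receptors compared, 21 were higher and 2 lower. Of 18 genes of KIT signalling compared, 6 were higher and 3 lower, with *Kit* itself, a gate gene, at 807, 792, 830 and 599 CPM. Over all genes compared, 8.76% were higher and 24.7% lower.

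Among 20 transcription factors compared, 7 were at least 2-fold higher in mast cells and none was lower. *Gata2* stood at 402, 551, 462 and 456 CPM against 2.23 CPM in other cells, and *Gata1* at 17.2, 19.7, 30.6 and 20.2 CPM against 0.0553 CPM. *Mitf*, a regulator of *Kit* and of mast cell proteases, stood at 124, 100, 108 and 103 CPM, and was at 169 CPM in macrophages. *Cebpa*, which marks basophil and other granulocyte fates, was at 1.64 CPM in WT2 and at 0 in the 3 other libraries.

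Lipid mediator genes were uneven. Of 9 compared, 4 were at least 2-fold higher in mast cells, among them *Hpgds*, the prostaglandin D2 synthase, at 211, 361, 268 and 315 CPM, *Alox5ap*, which serves leukotriene synthesis, at 272, 244, 181 and 218 CPM, and *Pla2g7*, which breaks down platelet-activating factor, at 863, 878, 926 and 711 CPM. Other leukocytes carried them too: *Hpgds* averaged 270 CPM in macrophages, and *Alox5ap* 361 CPM in macrophages and 1655 CPM in neutrophils. *Pla2g7* averaged 77.1 CPM in macrophages and 293 CPM in neutrophils. *Ltc4s*, the leukotriene C4 synthase, was near 0, at 3.13, 0, 1.28 and 1.26 CPM, against 194 CPM in macrophages. Adhesion and homing genes were divided, with 6 of 15 higher and 5 lower, against 8.76% higher and 24.7% lower over all genes compared.

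Cytokine transcripts were found in mast cells of both genotypes. Of 22 cytokines and chemokines compared, 12 were at least 2-fold higher in mast cells than in other cells and 4 were at least 2-fold lower. *Il4*, a type 2 cytokine, stood at 574, 445, 710 and 501 CPM in WT1, WT2, KO1 and KO2, against 1.68 CPM in macrophages. An *Il4* UMI was found in 87.3%, 88.2%, 83.1% and 75.3% of mast cells, without thinning. The 5 cells with most *Il4* held 49.3%, 35.1%, 43.8% and 36.0% of its UMIs. *Il13* stood at 150, 266, 334 and 206 CPM, *Tnf* at 419, 399, 453 and 359 CPM, and *Csf2* at 236, 143, 269 and 177 CPM. *Il5* was at 0 in every library, where a count of 0 allows up to 3 UMIs.

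Other cytokine transcripts were concentrated in few cells. *Csf2* was detected in 25.5%, 27.5%, 20.8% and 20.5% of mast cells, and the 5 cells with most of it held 92.1%, 78.2%, 74.4% and 82.1% of its UMIs. The chemokines *Ccl2* and *Ccl7*, which recruit monocytes, were of the same kind. *Ccl7* stood at 285, 323, 989 and 340 CPM, and was detected in 7.27%, 11.8%, 19.5% and 11% of mast cells. The 5 cells with most *Ccl7* held 100%, 99.5%, 67.4% and 81.1% of its UMIs. *Ccl2* stood at 447, 395, 1215 and 300 CPM, against 1257 CPM on average in macrophages, so KO1 was high for both genes and KO2 lay below both WT libraries for *Ccl2*. Of 20 genes of the dissociation response, 2 were at least 2-fold higher and 3 at least 2-fold lower in mast cells than in other cells. Over all genes compared, 8.76% were higher and 24.7% lower. The summed level of the 20 genes in mast cells was 16025, 13539, 16348 and 13043 CPM. The part of the dissociation response in the cytokine levels was not tested.

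**Figure D2:**
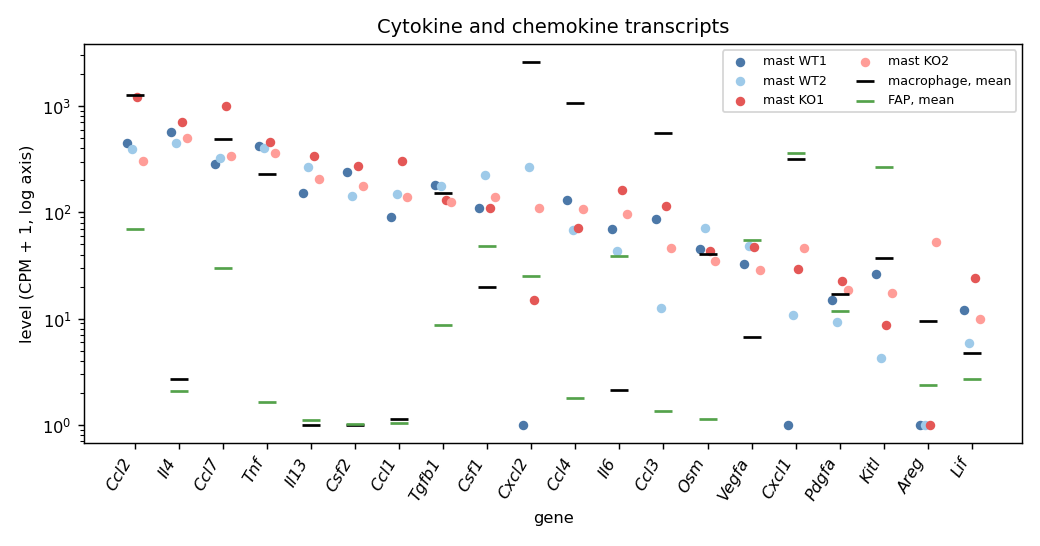
Cytokine and chemokine transcripts in mast cells of each library (points) and in macrophages and FAPs (dashes, means over 4 libraries), as CPM + 1 on a log axis. *Il4*, *Il13* and *Csf2* lie above 140 CPM in each mast cell library and near the bottom in macrophages and FAPs, and among mast cell libraries *Ccl2* and *Ccl7* are highest in KO1, at 1215 and 989 CPM, with macrophages at 1257 CPM for *Ccl2*.

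The ligands of these receptors were found in neighbouring cells. *Kitl*, stem cell factor, stood at 486, 441, 491 and 522 CPM in endothelial cells and at 245, 275, 283 and 254 CPM in FAPs of WT1, WT2, KO1 and KO2, and at 25, 3.28, 7.65 and 16.4 CPM in mast cells. *Il33*, the ligand of ST2, stood at 38.6, 27.0, 36.7 and 29.2 CPM in FAPs and at no more than 2.71 CPM in endothelial cells. WT and KO values of *Kitl* and *Il33* overlapped in FAPs. In endothelial cells both KO values of *Kitl* lay above both WT values, and the nearest of them, 486 and 491 CPM, were close.

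Transcripts of other cell types were found in some mast cells. All 10 FAP markers were at least 2-fold lower in mast cells, with a summed level of 1515, 264, 1185 and 1773 CPM against 20559 to 22867 CPM in other cells. The summed level of 8 glial markers was 231, 62.3, 240 and 197 CPM, against 504, 287, 355 and 226 CPM in other cells, and none of the 8 was at least 2-fold lower in each library. That of 12 macrophage markers was 64.1, 115, 74.0 and 59.3 CPM, against 632 to 723 CPM in other cells. Such markers were at or over a set limit, at least 3 of a type with 10 or more UMIs in sum, in 27 of the 256 cells, which were 6, 2, 10 and 9 cells by library. FAP markers accounted for 23 of these cells and glial markers for 12, some cells counting for both. Scrublet, a doublet caller, marked 17 mast cells, 14 of them among the 27. The results on genotype and cycling were therefore also computed on the 229 remaining cells. Whether the 27 cells are doublets was not tested further.

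The share of mast cells did not separate WT from KO by the test that 4 libraries allow. Mast cells made up 55 of 8515 cells (0.646%, exact 95% interval 0.487% to 0.840%) in WT1, 51 of 8177 (0.624%, 0.465% to 0.819%) in WT2, 77 of 9816 (0.784%, 0.620% to 0.979%) in KO1 and 73 of 10461 (0.698%, 0.547% to 0.877%) in KO2. Both KO shares lay above both WT shares and all 4 intervals overlapped. The intervals cover counting error only. The mean was 0.635% ± 0.0157 in WT and 0.741% ± 0.0612 in KO (SD, n = 2), a difference of 0.106 percentage points (exact two-sided permutation test, p = 0.333, the smallest the 6 arrangements can give). Without KO1 the difference was 0.0630 points, and without the 27 cells with markers of another type it was 0.0598 points. An edgeR test on the numbers of cells in all gates put KO 0.22 higher than WT on the log2 scale (edgeR adjusted p = 0.398 over the gates). As a share of cells in the mast, macrophage and neutrophil gates together, mast cells made up 19.8% ± 0.932 in WT and 25.8% ± 1.72 in KO. The neutrophil gate in that denominator held 75, 47, 17 and 18 cells, so the denominator itself differed between genotypes.

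A part of the mast cells was in cycle. Cycling cells were counted as those with at least 4 UMIs of a list of 35 S and G2/M phase genes after thinning to 2000 UMIs. They numbered 16 of 55 (29.1%) in WT1, 12 of 51 (23.5%) in WT2, 14 of 77 (18.2%) in KO1 and 9 of 73 (12.3%) in KO2. Both KO shares lay below both WT shares. The mean was 26.3% ± 3.93 in WT and 15.3% ± 4.14 in KO (SD, n = 2), a difference of -11.1 points (exact permutation test, p = 0.333, the smallest possible). The difference was -7.26 points when cells with *Pdgfra*, *Myog* or *Cdh5* were kept. In the same order of libraries, 27.1%, 40.4%, 31.9% and 36.4% of macrophages and 22.3%, 27.6%, 26.1% and 31% of FAPs were in cycle, and WT and KO values overlapped in both of these cell types. The cut divides a range: 13 mast cells had 3 of these UMIs, 16 had 4 or 5 and 106 had none.

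The proteases *Cpa3*, *Mcpt4*, *Cma1* and *Tpsb2* together made up 7.24%, 7.34%, 8.08% and 8.05% of all mast cell UMIs in WT1, WT2, KO1 and KO2. All 4 are gate transcripts, so these shares are a description and no test is given. The mean was 7.29% ± 0.0691 in WT and 8.06% ± 0.0212 in KO (SD, n = 2), and the difference was 0.776 points. It was smaller by other measures: 0.239 points for the median over single cells, and 0.488 points when cells with *Pdgfra*, *Myog* or *Cdh5* were kept. The medians over single cells were 8.16% in WT1, 7.13% in WT2, 7.66% in KO1 and 8.10% in KO2, so the genotypes overlapped by that measure. Among single mast cells the protease share ran from 0.0890% to 20.5%.

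**Figure D3:**
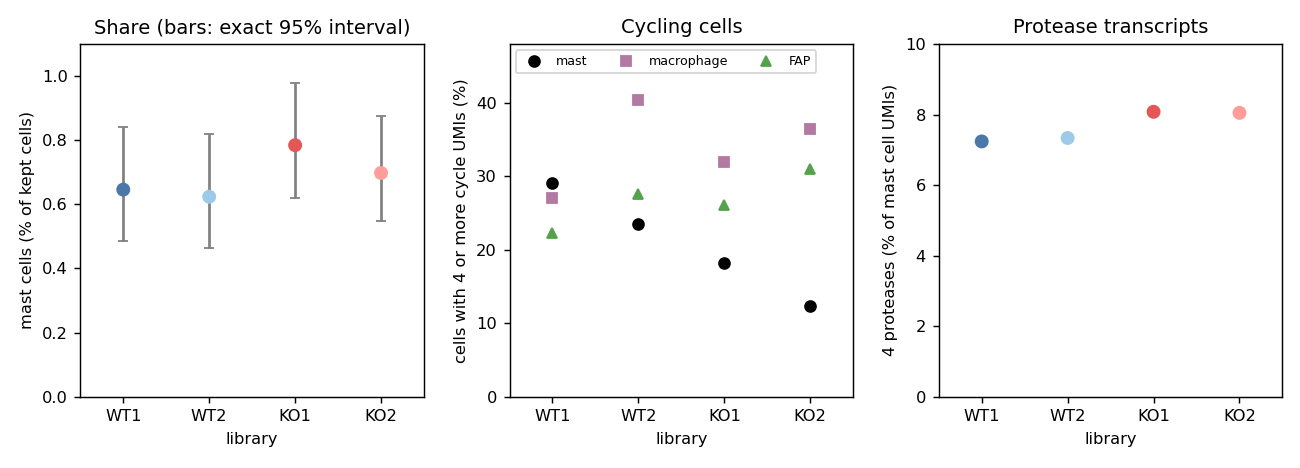
Mast cells as a share of kept cells with exact 95% intervals, cycling cells as a share of mast cells, macrophages and FAPs, and the 4 proteases as a share of mast cell UMIs, all in percent with a point for each library. Mast cell and protease shares are higher in both KO libraries (0.698% and 0.784%, 8.05% and 8.08%) and the cycling share of mast cells is lower (12.3% and 18.2%) than in both WT libraries.

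The 4 gate proteases took a smaller median share in cycling than in other mast cells of each library, which is given as a description. The median protease share per cell was 5.72%, 5.43%, 6.09% and 5.30% in cycling cells of WT1, WT2, KO1 and KO2 and 8.57%, 7.66%, 8.09% and 9% in the others. With the 27 cells with markers of another type left out, it was 6.36%, 5.51%, 6.83% and 6.43% against 8.63%, 7.80%, 8.52% and 9.58%. Cycling cells were deeper, with a median of 14488, 13308, 10252.5 and 12380 UMIs against 10789, 11980, 9684 and 10508.5 in the others. Of the 64 cells at or below the 25th percentile of protease share in their library, 25 were cycling and 21 were among the 27.

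Cycling and other mast cells were then compared across genes with the library as a block, leaving out the genes of the list that made the split. KO2 held only 9 cycling cells, under the 10 set as a minimum for this test, so it is an added result. Of 4257 genes tested, 222 (5.21%) rose in cycling cells and 183 (4.3%) fell, at an adjusted p under 0.05 with edgeR. Without WT1, whose 16 cycling cells were the most, 228 genes in all were called. In the 229 cells without markers of another type, 97 of 3664 genes (2.65%) rose and 80 (2.18%) fell. The split was made on transcripts of the same cells, so other genes of the cycle follow it by construction. FAP markers were higher in cycling cells as well, with 8 of 8 positive, a median log2 difference of 0.90 and none called, and both glial markers tested were positive (median 1.12). In the 229 cells 2 of 3 FAP markers were positive, with a median of 0.09. The part of these transcripts in the differences between cycling and other cells was not tested beyond leaving out the 27 cells.

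The gate proteases are described with no test, since they helped to choose the cells. Of the 7 other proteases tested, none passed. *Cpa3* stood at 17751, 20107, 19600 and 19791 CPM in cycling cells of WT1, WT2, KO1 and KO2 and at 29128, 28197, 34167 and 30084 CPM in the others, a log2 difference of -0.76 with an SE of 0.07. *Cma1* stood at 20839, 20207, 22159 and 19997 CPM against 32498, 30387, 30343 and 33571 CPM (-0.71, SE 0.07). The 2 classes did not overlap for either gene. The log2 difference was -1.17 for *Mcpt4* and -0.82 for *Tpsb2*, and in the 229 cells it was -0.55 for *Cpa3*, -0.52 for *Cma1*, -0.91 for *Mcpt4* and -0.68 for *Tpsb2*.

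Some genes of the granule and of the mast cell surface passed the test. The list counts are to be read against 4.3% of all genes tested that fell, and 2.18% in the 229 cells. Of 22 granule storage genes tested, 9 fell, among them *Srgn* (-0.70), *Cd63*, a granule membrane protein (-0.81), and *Slc6a4* (-0.85). In the 229 cells 3 of 21 fell, and these were the 3 just named. *Hdc* fell by 0.39 on the log2 scale in all cells, and in the 229 cells its change was -0.16 (edgeR adjusted p = 0.475), with adjusted p from 2.04e-08 to 0.475 over 14 alternatives. Of 20 surface receptors tested 4 fell (3 of 19 in the 229 cells), among them *Mrgprb1*, by 0.78, and *Mrgprb2*, by 0.93. Of 19 genes of IgE receptor signalling 2 fell, *Fcer1g*, by 0.73, and *Lat2*, and in the 229 cells only *Fcer1g* did. Of 15 transcription factors tested, none passed. *Gata2*, at a mean of 426 CPM in cycling cells and 480 CPM in the others, was among these. *Kit*, a gate gene and so given with no test, stood at a mean of 748 CPM in cycling cells and 752 CPM in the others.

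Cytokine genes moved in both directions. Of 15 tested, 6 fell and 1 rose, and without the 27 cells 4 of 13 fell and 1 rose. Over all genes tested, 4.3% fell and 5.21% rose, and without the 27 cells 2.18% fell and 2.65% rose. *Il13* stood at 37.4, 147, 115 and 53.9 CPM in cycling cells and at 218, 304, 389 and 230 CPM in the others, and fell by 1.86 on the log2 scale. *Csf2* fell by 1.63, *Ccl7* by 1.81 and *Ccl2* by 1.45. Over 13 alternatives *Csf2* passed in 10, *Ccl7* in 8 and *Ccl2* in 7, while *Il13* passed in all 13. *Ccl2* stood at 170, 6.69, 983 and 225 CPM in cycling cells of WT1, WT2, KO1 and KO2, against 614, 522, 1273 and 312 CPM in the others. *Il4* and *Tnf* fell in all cells, by 0.77 and 0.60, and did not pass in the 229 cells. *Il6* was higher in cycling cells of each library. It rose by 1.06 (SE 0.26, edgeR adjusted p = 0.0206), from 40.1, 34.8, 116 and 90.9 CPM in the other cells to 116, 66.9, 345 and 117 CPM in cycling cells, and *Il6* also rose by 1.40 in the 229 cells. The rise of *Il6* passed in 11 of 14 alternatives and in 1 of the 4 fits with a library left out. FAPs carried *Il6* at a mean of 37.5 CPM.

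Among genes outside the cell cycle lists, those with the highest fold in cycling cells at 20 CPM or more were *Knstrn*, *Hist1h1b*, *Racgap1*, *Cdca8*, *Cenpe*, *Pbk*, *Tacc3*, *Cdca3*, *Cenpa* and *Spc24*, which act in the mitotic spindle, at the kinetochore, in cytokinesis or, for *Hist1h1b*, as a linker histone. *Cdca8* stood at 191, 214, 179 and 216 CPM in cycling cells and at 10.0, 15.2, 8.0 and 5.9 CPM in the others. The leading genes in the other direction were *Ctsj*, *Il13*, *Ccl7*, *Csf2*, *Tmem230*, *Hilpda*, *Cd33*, *Mlph*, *N4bp2l1* and *S100a1*. *Cd33*, an inhibitory lectin receptor, stood at 12.5, 13.4, 38.3 and 27.0 CPM in cycling cells and at 52.7, 56.5, 66.9 and 77.7 CPM in the others. *Mlph*, melanophilin, links RAB27 vesicles to myosin and stood at 20.8, 13.4, 31.9 and 0 CPM against 50.2, 39.1, 57.4 and 41.1 CPM. *Ccnd2*, a G1 cyclin, fell by 0.98 in cycling cells.

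**Figure D4:**
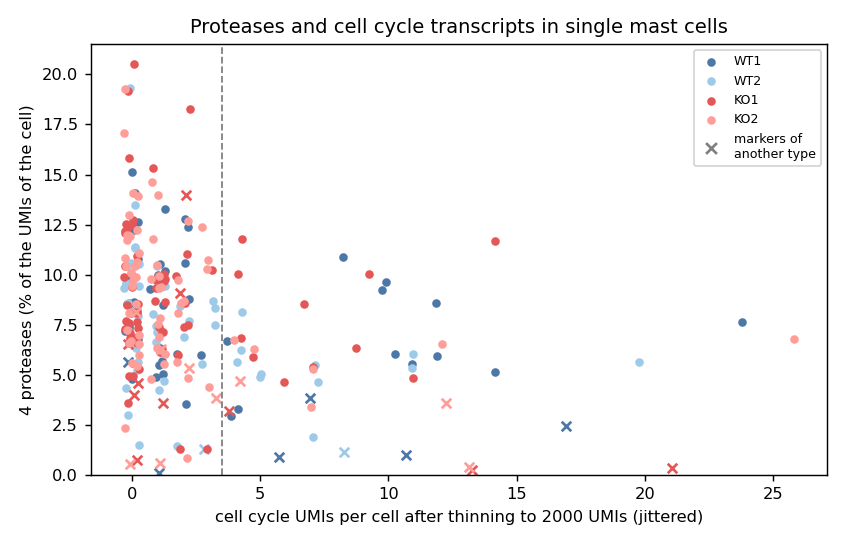
The 4 proteases as a share of the UMIs of each of 256 mast cells (percent) against its cell cycle UMIs after thinning to 2000 UMIs (jittered), coloured by library. The dashed line marks the limit of 4 UMIs, and crosses mark the 27 cells with markers of another cell type, of which 21 lie at or below the 25th percentile of their library.

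The genotypes were compared across genes on the UMIs of mast cells summed by library. Of 6700 genes tested with edgeR, none passed an adjusted p of 0.05 (0%), and 237 (3.54%) were higher and 148 (2.21%) lower in KO at an unadjusted p under 0.05. The smallest adjusted p was 0.274. DESeq2 called 2 genes. Leaving out 1 library at a time, which assumes that the lone library varies like the other genotype, edgeR called 161 genes without WT1, 144 without WT2, 90 without KO1 and 40 without KO2. At least 1 of these fits called 286 genes, which included 9 markers of other cell types and 4 sex-linked genes. The fits share libraries with each other and add no independent evidence.

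*Fcer1a*, which encodes the IgE-binding α chain (chromosome 1, 173221284 to 173227214, GRCm38, minus strand), stood at 416 and 481 CPM in WT and at 237 and 217 CPM in KO. The genotypes did not overlap. The UMIs came from 22, 22, 25 and 21 cells of WT1, WT2, KO1 and KO2 (40%, 43.1%, 32.5% and 28.8% of mast cells), and the 5 cells with most *Fcer1a* held 54.1%, 41%, 51.6% and 64% of them. KO was lower by a log2 difference of -0.98 (SE 0.14), with an edgeR adjusted p of 0.279, and the adjusted p ran from 0.0534 to 0.856 over 14 alternatives. It was -1.07 to -0.89 when 1 library was left out, and -0.98 in the 229 cells without markers of another type (edgeR adjusted p = 0.0534). The gate used *Fcer1a* as 1 of 6 transcripts, so its test is not independent of how the cells were chosen. Of its partners, *Ms4a2* overlapped between genotypes, at 169 and 161 CPM in WT and at 184 and 126 CPM in KO. *Fcer1g* did not, at 3834 and 4102 CPM in WT and at 3639 and 3562 CPM in KO, and it did not reach an unadjusted p of 0.05 with edgeR. Over all genes tested, 17.7% had both KO libraries below both WT libraries.

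The transcripts with the smallest p in the higher direction were *Gm42418* and *AY036118*, which overlap on opposite strands of chromosome 17 (39846958 to 39848788 and 39847113 to 39848035, GRCm38) within ribosomal RNA sequence. *Gm42418* stood at 1240 and 1552 CPM in WT and at 2652 and 2514 CPM in KO (log2 difference 0.89, SE 0.12, edgeR adjusted p = 0.274). Over its 14 alternatives the adjusted p ran from 0.000132 to 0.856. *AY036118* stood at 134, 130, 340 and 285 CPM (1.24, SE 0.17, edgeR adjusted p = 0.274), and its adjusted p ran from 0.00682 to 0.856. Both genes were higher in other cells, where *Gm42418* stood at 6715, 7190, 5658 and 6760 CPM with no gap between genotypes. They were the genes called by DESeq2, and they passed in the 229 cells with edgeR as well. The part of ribosomal RNA in the other differences was not tested.

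*Ism1*, the gene of the secreted protein isthmin 1, had 0 and 2 UMIs in WT mast cells and 33 and 35 in KO, a ratio of 26.9 (95% counting interval 7.17 to 227). Its edgeR adjusted p was 0.274 in all cells and 0.0198 in the 229 cells, and ran from 0.0198 to 0.856 over 12 alternatives. *Rgcc*, a cell cycle regulator that responds to complement, stood at 50.0 and 44.3 CPM in WT and at 98.2 and 126 CPM in KO, and *Man1a*, a Golgi mannosidase, at 53.2 and 77.1 CPM and at 134 and 177 CPM. In the lower direction *Ube2c*, a ubiquitin-conjugating enzyme of mitosis, stood at 125 and 118 CPM in WT and at 56.1 and 63.0 CPM in KO. Its log2 difference of -1.03 turned to 0.22 when cells with *Pdgfra*, *Myog* or *Cdh5* were kept. Also lower in both KO libraries were *Cenpa* at 117, 135, 56.1 and 73.1 CPM, *Hmga2*, a chromatin protein of fetal cells, at 281, 282, 184 and 141 CPM, and *Grik2*, a glutamate receptor subunit, at 310, 239, 161 and 142 CPM. None of these 7 genes passed in all cells, with adjusted p between 0.274 and 0.745, although the genotypes did not overlap for any of them. That gap was a condition of their choice, and 17.9% of the genes tested had both KO libraries above both WT libraries and 17.7% had them below.

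**Figure D5:**
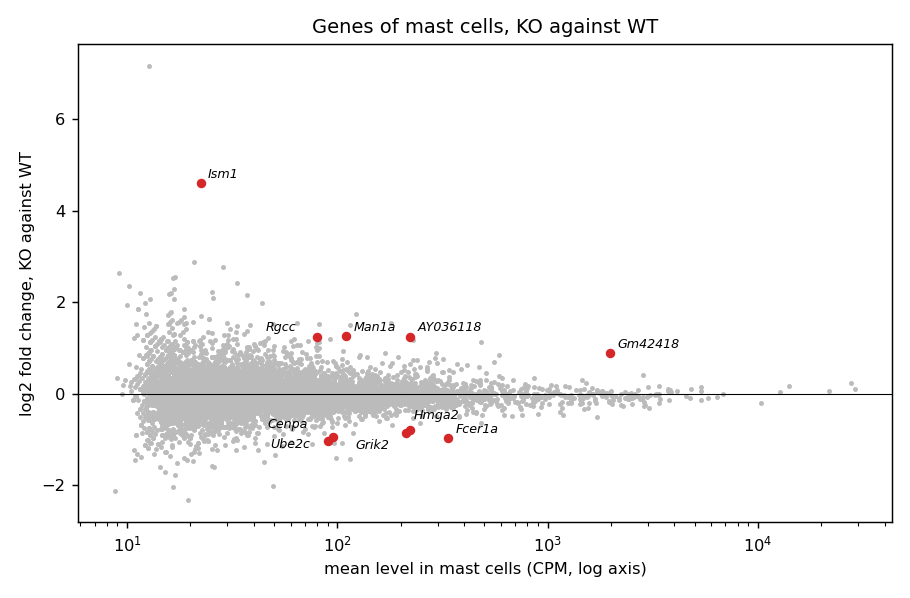
Log2 fold change of KO against WT for 6700 genes in mast cells, against their mean level (CPM, log axis). The 10 genes in red had the smallest p in each direction among genes at 20 CPM or more with no overlap between genotypes, from *Ism1* at 22.4 CPM to *Gm42418* at 1989 CPM, and no gene passed an adjusted p of 0.05.

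Read by group, lists of mast cell genes had these differences between genotypes. The median log2 fold change was -0.03 over 12 granule proteases, -0.00 over 26 granule storage genes, -0.07 over 22 genes of IgE receptor signalling, -0.06 over 26 surface receptors 0.16 over 17 transcription factors and 0.24 over 15 genes of KIT signalling (10 positive), against -0.00 over all genes tested. The 2 mucosal mast cell genes tested had a median of -1.14. *Mcpt2*, a mucosal mast cell gene, had 92, 9, 8 and 23 UMIs in WT1, WT2, KO1 and KO2, and 1 cell held 66 of those in WT1. At an unadjusted p under 0.05, 2 proteases (*Cpa3*, *Prss34*) were higher and none lower, and 2 storage genes (*Slc18a2*, *Hs3st1*) were higher. *Fcer1a* was the 1 IgE receptor gene with a difference. *Cpa3* and *Fcer1a* are gate transcripts, so their p is not independent of how the cells were chosen. Of 18 cytokines tested, 4 were higher (*Il6*, *Ccl1*, *Ccl7*, *Cxcl1*) and 1 was lower (*Tgfb1*), with a median of 0.24. These list counts are to be read against 3.54% higher and 2.21% lower over all genes tested. *Ccl7* stood at 285, 323, 989 and 340 CPM in WT1, WT2, KO1 and KO2, and *Ccl1* at 89.1, 148, 301 and 139 CPM. Both were highest in KO1, and *Ccl1* in KO2 lay below WT2. *Il6*, at 68.8, 42.6, 162 and 94.6 CPM, and *Cxcl1*, at 0, 9.84, 28.1 and 45.4 CPM, did not overlap between genotypes. Over all genes tested, 17.9% had both KO libraries above both WT libraries. FAPs carried *Cxcl1* at a mean of 358 CPM and *Il6* at 37.5 CPM, and the part of FAP transcripts in these differences was not tested.

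Cell cycle genes leaned the other way. Of 32 tested genes of the list used for the split, 1 had a higher and 31 had a lower estimate in KO, with a median of -0.53, and 5 were lower at an unadjusted p under 0.05. Of 23 further cell cycle genes, 2 were higher and 5 lower at that level, with a median of -0.21. Among the lower were *Smc2*, at 130 and 75.5 CPM in WT and at 49.7 and 46.6 CPM in KO, *Birc5*, at 163, 91.9, 62.5 and 59.3 CPM, and *Cks1b*, at 124, 112, 68.9 and 71.9 CPM. None passed after adjustment. Over all 6700 genes tested, 3331 had a positive estimate. The summed level of the split list was 2017, 1297, 1283 and 978 CPM in WT1, WT2, KO1 and KO2. WT2 and KO1 were thus nearly equal. For the list of further cell cycle genes the sum was 7306, 5529, 5663 and 4949 CPM, so the genotypes overlapped. In the 229 cells the split list had a median of -0.66 over 26 genes. These are the same transcripts that define the cycling share and add no separate evidence for it. All 8 FAP markers tested had a positive estimate in KO, with a median of 0.73. The summed level of the FAP markers overlapped between genotypes, at 1515 and 264 CPM in WT and at 1185 and 1773 CPM in KO. In the 229 cells 2 of 3 FAP markers were positive, with a median of 0.05.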

How the data were processed

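Leg muscle cells of WT and KO fetuses (2 libraries each) were profiled with 10x 3′ chemistry. Per the submitters' processing notes, reads were aligned to mm10 with Cell Ranger 7.2.0. The authors deposited UMI counts of each gene in each cell without normalisation. Whether intronic reads were counted was not given in the sources used here. Counts of closely related or overlapping genes may not be separable.

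The study's limits for cells were applied (1000 to 6000 genes, 1000 to 25000 UMIs, mitochondrial share under 8%). Doublets were not called in the main setting, and Scrublet (scanpy 1.11.5) was an alternative. Levels are CPM of cells summed by library. Macrophage, neutrophil, FAP, endothelial and myogenic cells were gated by markers in the same way. Genes whose mean CPM in mast cells and in other cells summed to at least 10 were compared as a description, and a gene counted as higher at 2-fold or more in each of 4 libraries. UMIs summed by library were tested with edgeR 4.0.16 in R 4.3.3 (quasi-likelihood, TMM, filterByExpr, Benjamini-Hochberg adjustment, threshold 0.05), with standard errors taken from the F statistic. Mast cell and cycling shares were tested by exact permutation over 6 arrangements. The cell is not a replicate. The labels call the libraries biological replicates, and p-values measure the spread between them. Scripts were tested on simulated counts.

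Genes were named by a rule: called genes and the 5 smallest p in each direction at 20 CPM or more without overlap for genotype, up to 10 called genes in each direction for cycling, the 20 highest ratios for mast cells, and list members. The members, lists and tests were chosen with earlier results of these data known. Replicate numbers did not pair the libraries (correlation of deviations 0.00644 over 6700 genes). Gene coordinates are from GENCODE on GRCm38, the build of mm10. Alternatives were RLE factors, DESeq2 1.42.0, other gene filters, a replicate block, other cell filters, gate limits, thinning depths and cycling limits, leaving out each library, and, chosen after seeing the data, leaving out cells with markers of another type and the cycling test itself.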

Additional observations from a re-analysis of the deposited data

How the results depend on the processing

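The differences in mast cell share, cycling share and protease share kept their sign under every alternative run. By the median over single cells, however, the protease share overlapped between genotypes. With 1 library left out the 3 differences ran from 0.0630 to 0.150, from -14.0 to -8.13 and from 0.728 to 0.825 points. With cells carrying markers of another type also removed, they ran from 0.0244 to 0.0952, from -14.1 to -7.05 and from 0.799 to 1.24 points. With 2 libraries a genotype, the exact permutation test of a share cannot pass 0.05. For genotype, DESeq2 called 2 genes, a gate sum of at least 20 called 3 (*Dcn*, *Meg3*, *Itm2a*), removal of Scrublet doublets 1 and removal of cells with markers of another type 3. Leaving out 1 library gave 40 to 161 genes, or 1 to 69 without the marked cells (60 of them without KO2). The replicate block called 0 genes (smallest adjusted p 0.0687), and the numbers did not pair the libraries. For cycling against other mast cells, 405 genes became 200 with DESeq2, 845 without a filter on low counts, 177 without the marked cells and 383 with no replicate block, 228 to 320 with 1 library left out, and 61 to 219 with both (96 without KO1). *Ube2c* in KO against WT reversed to 0.22 when cells with *Pdgfra*, *Myog* or *Cdh5* were kept. The cause of these changes was not tested. Mast cells held 609659 to 793163 UMIs a library, which limits genes below about 10 CPM.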
